A study of Mus musculus with 4 samples.

Results

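Synaptic vesicle and release genes were followed as 45 genes in cultured mouse neural precursor cells, out of 18193 genes that had a probe set of their own on the array. The 45 were chosen by name, as genes whose proteins fill, dock, fuse and retrieve the vesicles of nerve endings or hold the synapse together. The list was drawn up with earlier results of these data known, so its share of lower or higher genes is a description. The cells were neuroepithelial cells, the dividing precursors of forebrain neurons and glia, taken from the telencephalon of ICR mouse embryos. Cells of the E11.5 group were isolated at embryonic day 11.5 and kept 1 day in culture, and cells of the E14.5 group at embryonic day 14.5 and kept 4 days in culture. Each group was measured on 2 Affymetrix arrays. Both cultures received N2 supplement and 10 ng/ml basic FGF, a factor that keeps precursors dividing, on polyornithine and fibronectin. Embryonic age and days in culture changed together, so their parts in any difference cannot be told apart. The sources used here do not say that replicate arrays hold RNA of separate litters or dishes, and p-values then cover only array-to-array spread, which can be technical.

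At a nerve ending, transmitter is pumped into vesicles, the vesicles are held at the active zone, and calcium entry makes them fuse with the membrane. Fusion is driven by SNARE proteins on the vesicle and on the membrane, which zip together and are later pulled apart for reuse. Spent vesicle membrane is then taken back by endocytosis. Several of these proteins are found mainly in neurons, whereas relatives of them serve membrane traffic in many cell types. Dividing precursors build no synapses, but neurons that are born from them in culture begin to make this machinery early.

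The arrays differed in brightness. Their 2% trimmed means were 187 and 252 for E11.5 and 154 and 103 for E14.5, and each array was scaled by 1 factor to a common value of 174. Values below are scaled linear intensities of the brightest probe set of a gene, a probe set being the group of short probes that reads 1 transcript. They show no gene's level relative to another gene's, because probe sets differ in how well they bind. Differences are E14.5 minus E11.5 on the log2(intensity + 12.8) scale with their SE, n = 2 arrays per group, and adjusted p-values are from limma over 27022 probe sets. The constant 12.8 makes differences of dim genes smaller than the ratios of their intensities. All 12 listed neural progenitor genes passed the filter, with group means from 231 (Hes1 at E14.5) to 11181 (Fabp7 at E14.5). By size of the difference, the called ones were led by Hes5 (793 to 2775) and Notch1 (793 to 2267), which were higher, and by Ccnd1 (1754 to 943) and Pax6 (507 to 283), which were lower.

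More of the release machinery was lower than higher at E14.5. Of the 45 genes, 41 passed the filter on dim probe sets. Of these, 18 were lower at E14.5, 7 were higher and 16 did not pass the test (25 called in all, beside 27.8% of all genes). Lower genes made up 43.9% of the 41, against 13.6% of all 12952 genes tested, and higher genes 17.1% against 14.3%. The median difference of the 41 was -0.32, against 0.03 for all genes. With the values left as deposited, without scaling, 19 of the 41 were lower and 1, Syn2, was higher, and over all genes 2175 were lower and 255 higher, so that 10.5% of calls were higher instead of 51.3%. The median of all genes was then -0.67, and Cplx1 (0.12), Syt11 (0.17), Nlgn2 (0.11) and Nlgn3 (0.46) kept their sign but lost their calls. Lower by at least 2-fold on this scale were 14 of the 41, against 6.27% of all genes, and higher by as much 2, against 6.47%. Both E14.5 arrays lay below both E11.5 arrays for 21 of the 41, which 31.0% of all genes also did, and above them for 9, against 34.6%. Syt13, Slc17a6 and Dlg2 passed the filter only through their E11.5 level, with E14.5 means of 23.9, 17.3 and 21.9 below the limit of 27.3, so these counts and medians are descriptions of the genes that passed.

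**Figure D1:**
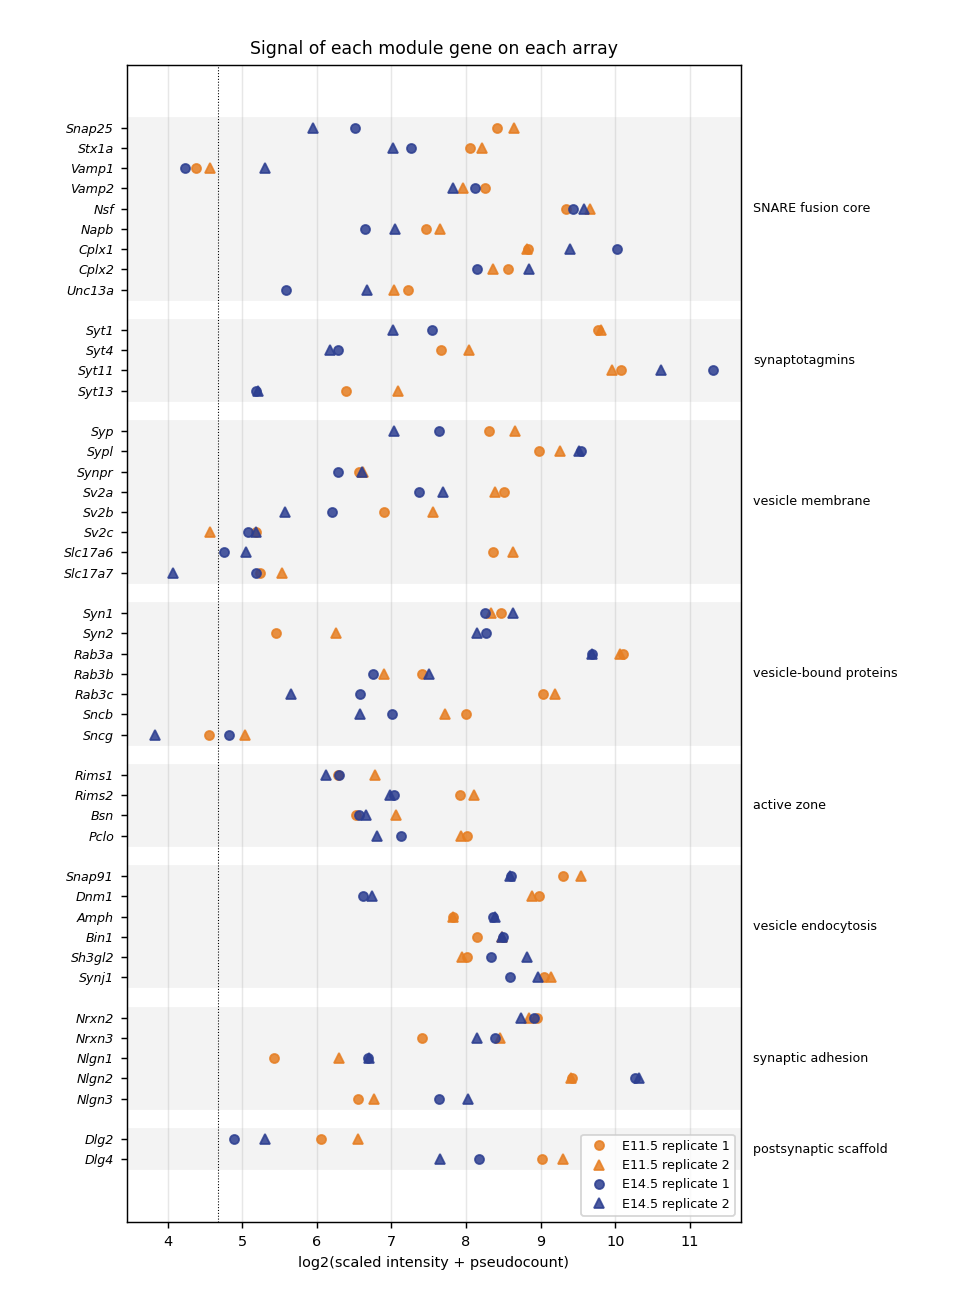
Signal of each of the 45 genes on each of the 4 arrays, as log2(scaled intensity + 12.8), grouped by role. Orange marks are E11.5 and blue marks E14.5 arrays, circles replicate 1 and triangles replicate 2, and the dotted line marks an intensity equal to the constant. For Slc17a6, Rab3c, Syt1, Snap25 and Dnm1 the blue marks lie far to the left of the orange ones, and for Syn2 far to the right.

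The genes at the ends of this range were the vesicular glutamate transporter Slc17a6 and the synapsin Syn2. Slc17a6, which loads glutamate into vesicles of early excitatory neurons, read 317 and 384 at E11.5 against 14.3 and 20.2 at E14.5. The log2 difference was -3.59 ± 0.24 (adjusted p = 6.1e-06). Its E14.5 values lie below the filter and near the constant of 12.8, with no detection call to set them against background, so the size of the fall depends on that constant, from -2.72 to -4.23 with the larger and the smaller one, and no fold is given. Syn2, a phosphoprotein that tethers vesicles to each other and to the cytoskeleton, read 30.9 and 64.0 at E11.5 and 295 and 270 at E14.5. Its mean was 5.95-fold higher (2.35 ± 0.27, adjusted p = 2.1e-04). For Slc17a6 the arrays of a group lay close together beside the gap between the groups. The E11.5 arrays of Syn2 lay further apart, and its difference was 1.94 without E11.5 replicate 1 and 2.75 without E11.5 replicate 2.

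Stretches before the annotated start of 4 genes are shown, because these are the largest fall, the calcium sensor that fell most, the largest rise and a synapsin whose groups overlapped. They are from RefSeq on GRCm38.p6, read 5′ to 3′ along the gene. For Slc17a6 (chr7:51621680-51621829, plus strand), Syt1 (chr10:109010976-109011125, minus strand) and Syn2 (chr6:115134752-115134901, plus strand) these are the 150 bases before the start, with the GC box GGGCGG, on either strand, in capitals. For Syn1 (chrX:20921091-20921150, minus strand) they are 60 bases that begin 232 bases before the start, with a match to RE1, the site of the repressor REST, in capitals.
Slc17a6: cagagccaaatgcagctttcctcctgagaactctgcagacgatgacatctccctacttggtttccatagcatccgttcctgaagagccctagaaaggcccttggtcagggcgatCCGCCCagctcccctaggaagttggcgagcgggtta
Syt1: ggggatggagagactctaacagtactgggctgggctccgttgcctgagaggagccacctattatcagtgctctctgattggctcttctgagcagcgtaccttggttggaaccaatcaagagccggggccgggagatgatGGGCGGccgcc
Syn2: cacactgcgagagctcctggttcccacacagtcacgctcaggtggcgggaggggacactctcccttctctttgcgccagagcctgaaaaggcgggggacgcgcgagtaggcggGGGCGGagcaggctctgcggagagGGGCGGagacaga
Syn1: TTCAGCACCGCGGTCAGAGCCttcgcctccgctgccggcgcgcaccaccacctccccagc

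RefSeq gave a window of 300 bases, 250 before to 50 after a start, for 37 of the 45 genes. The start used was the one nearest the 5′ end of the gene. It lay 614598 bases from that end for Dlg2, 71803 for Nrxn3, 2560 for Syt11, 2419 for Synj1 and less for the other genes. The windows were searched on both strands, each motif on its own, so matches of different motifs may overlap. RE1 was searched by its consensus, with up to 3 mismatches in the 19 fixed letters. Syn1 was the 1 gene of 37 with such a match, at 2 mismatches, and 12 of the 10453 tested genes with a window had one (0.11%), as did 21 of all 27025 genes with a window (0.078%). GC boxes were in the windows of 26 of the 37 genes, or 70.3%, beside 63.0% of tested genes. Of those that were lower 11 of 14 had one, of those that were higher 5 of 6, and of those that did not pass the test 6 of 13. The letters CAGCTG, a core that neural bHLH factors can bind, were in 10 of 37 windows, or 27.0%, beside 15.0% of tested genes. They were in 3 of 14 genes that were lower, 4 of 6 that were higher and 3 of 13 that did not pass the test. The TATA box TATAAA was in 2 of 37 (5.4%, beside 7.4% of tested genes) and the cAMP response element TGACGTCA in 2 of 37 (5.4%, beside 3.1%). GC content had a median of 59.0% in the 14 windows of genes that were lower and 64.7% in the 6 of genes that were higher, with 60.7% over tested genes. A match describes letters and shows no binding.

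The SNARE core of fusion was divided. Snap25, a SNARE of the plasma membrane found mainly in neurons, read 330 and 387 at E11.5 and 78.8 and 49.2 at E14.5, 5.60-fold lower in mean (-2.30 ± 0.23, adjusted p = 7.9e-05). Its membrane partner Stx1a, syntaxin 1A, fell from 254 and 283 to 141 and 117 (-0.99 ± 0.19). Vamp2, the vesicle SNARE that pairs with both, read 293 and 235 at E11.5 and 265 and 213 at E14.5, so the groups overlapped and the difference did not pass the test (-0.14 ± 0.19, adjusted p = 0.66). Its relative Vamp1 was dim in both groups, at 7.99 and 10.8, then 5.94 and 26.9, and was not tested. Of the SNAREs that meet in 1 complex, the membrane pair was thus lower at the brightest probe sets. A second, dimmer Stx1a probe set was not called (-0.46 ± 0.27). The vesicle partner showed no difference that passed.

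Factors that recycle or control the SNAREs also went separate ways. Where 1 array is left out, here and below, its group holds 1 array that is assumed to vary like the other group, so such a fit has 1 residual degree of freedom and a call gained or lost in it is a weak sign. Nsf, the ATPase that pulls spent SNARE complexes apart in all cells, had means of 715 and 716. Napb, the brain form of its adaptor SNAP, read 163 and 189 at E11.5 and 87.7 and 120 at E14.5 (-0.70 ± 0.22, adjusted p = 0.041). Leaving out E11.5 replicate 2 (-0.60) or E14.5 replicate 1 (-0.50), quantile normalization (-0.64), no filter and no variance trend each lost this call, but 3 other Napb probe sets were also called lower, and the mean over its 5 tested probe sets was -1.21. Cplx1, a complexin that clamps assembled SNAREs until calcium arrives, rose from 442 and 438 to 1029 and 657 (0.88 ± 0.20, adjusted p = 0.0089). Its E14.5 arrays were far apart, and without E14.5 replicate 1 the difference was 0.56. The call was lost with its 3 probe sets averaged (0.59) and without a variance trend. The second complexin Cplx2 overlapped between the groups, at 367 and 317 against 271 and 445. Unc13a, which primes vesicles for fusion, read 136 and 118 at E11.5 and 35.2 and 89.1 at E14.5, with means of 127 and 62.1, and missed the threshold (adjusted p = 0.054). It passed as lower without E14.5 replicate 2 (-1.54) or E11.5 replicate 2 (-1.09), with the larger pseudocount, with the stricter filter and with the replicate numbers as a block.

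Among synaptotagmins, the calcium-binding proteins of vesicles, 3 of 4 were lower and 1 was higher, beside 13.6% lower and 14.3% higher of all genes. Syt1, the calcium sensor of fast release, read 859 and 885 at E11.5 and 173 and 117 at E14.5 (-2.51 ± 0.19, adjusted p = 1.4e-05). It was 6.01-fold lower in mean, and all 3 of its tested probe sets were called lower. Syt4, which binds calcium weakly and sits on secretory vesicles, fell from 191 and 251 to 65.1 and 59.5 (-1.63 ± 0.22). Syt13, an unusual member that lacks calcium binding, fell from 70.9 and 123 to 23.4 and 24.3 (-1.54 ± 0.32). That call was lost without E11.5 replicate 2 (-1.19), and a second Syt13 probe set overlapped between the groups and was not called (-0.80 ± 0.43). Syt11, also without calcium-triggered membrane binding and known from vesicle traffic and endocytosis, rose from 1065 and 984 to 2530 and 1550 (0.94 ± 0.20, adjusted p = 0.0068). All 5 Syt11 probe sets were called higher, with differences from 0.87 to 1.03. Without E14.5 replicate 1 its difference was 0.59, and at its brightest probe set the call was lost without a variance trend. Within an array, the log2 ratio of Syt1 to Syt11 moved by -3.55 and -3.36 on the E14.5 arrays from its E11.5 mean, while the E11.5 arrays lay at -0.08 and 0.08.

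Proteins of the vesicle membrane were called lower for 4 of 6 tested, beside 13.6% of all genes. None was called higher by limma, beside 14.3%, with Sypl alone higher at an unadjusted p under 0.05. Syp, synaptophysin, the abundant membrane protein by which vesicles are stained, read 303 and 390 at E11.5 and 186 and 118 at E14.5 (-1.14 ± 0.23, adjusted p = 0.0048). A second, dim Syp probe set showed no such difference (0.15 ± 0.43), and with both averaged the call was lost (-0.50). Sypl, the synaptophysin relative of non-neuronal cells, had all E14.5 values above its E11.5 values, at 493 and 601 against 730 and 721, but missed the threshold (0.41 ± 0.15, adjusted p = 0.075). Sypl passed as higher without E11.5 replicate 2 (0.54), while its 6 tested probe sets ran from -0.41 to 0.41. Synpr, synaptoporin, overlapped between the groups at 82.1 and 85.8 against 65.2 and 84.2. The log2 ratio of Syp to Sypl within an array shifted by -1.55 between the groups.

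The SV2 proteins, which shape the readiness of vesicles for release, fell where they could be tested. Sv2a, the form of most synapses, read 350 and 321 at E11.5 and 153 and 193 at E14.5 (-0.91 ± 0.18, adjusted p = 0.0045). Sv2b read 107 and 176, then 61.2 and 34.9 (-1.34 ± 0.31, adjusted p = 0.010). That call was lost without E11.5 replicate 2 (-1.01), and a second Sv2b probe set was called lower with a larger difference (-2.22 ± 0.34). Sv2c was too dim to be tested, at 23.6 and 10.9 against 20.8 and 23.5. For glutamate loading, both tested probe sets of Slc17a6 were called lower. The transporter of mature cortical neurons, Slc17a7, was below the filter at 24.8 and 33.3, then 23.7 and 3.95.

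Proteins that sit on the vesicle surface held the largest rise of the 41 genes and, after Slc17a6, the next largest fall. The small GTPase Rab3c, which guides vesicles to the membrane, read 512 and 575 at E11.5 and 82.7 and 37.3 at E14.5 (-3.01 ± 0.27, adjusted p = 4.6e-05). All 3 of its tested probe sets were called lower, with differences from -3.01 to -0.99 and a mean of -1.93. Rab3a, the chief Rab3 of brain, missed the threshold at its brightest probe set, with 1085 and 1053 against 813 and 815 (-0.39 ± 0.13, adjusted p = 0.051), although the groups did not overlap. A second Rab3a probe set was called lower (-1.15 ± 0.19), and Rab3a passed with both averaged (-0.77), with quantile normalization (-0.41), with the larger pseudocount (-0.38) and with the stricter filter. Rab3b overlapped fully, at 157 and 107 for E11.5 and 95.0 and 169 for E14.5. The log2 ratio of Rab3a to Rab3c within an array was 2.15 and 3.09 above its E11.5 mean on the E14.5 arrays, so the Rab3 genes did not move by the same amount.

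The synapsins differed from each other. All 4 tested Syn2 probe sets were called higher, with differences from 1.09 to 2.35 and a mean of 1.53. Syn1, the synapsin used to mark neurons, read 341 and 310 at E11.5 and 292 and 384 at E14.5 (0.04 ± 0.18, adjusted p = 0.89). The log2 ratio of Syn1 to Syn2 within an array lay at 0.47 and -0.47 on the E11.5 arrays around their mean and at -2.56 and -2.05 on the E14.5 arrays. The gene Timp4 (chr6:115244444-115252205 on GRCm38.p6) lies inside Syn2 (chr6:115134902-115282626), and whether any Syn2 probe reads it was not tested. Of the synucleins, small proteins of the nerve terminal, Sncb fell from 242 and 198 to 116 and 82.4 (-1.07 ± 0.22, adjusted p = 0.0059). Sncg was below the filter, at 10.7 and 19.9 against 15.6 and 1.37.

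**Figure D2:**
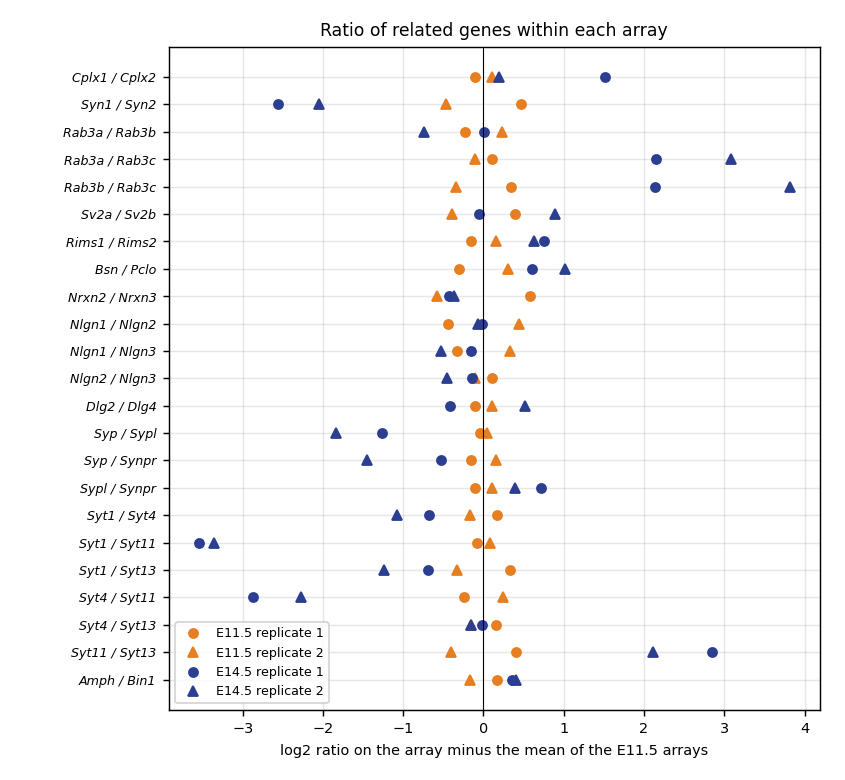
Ratio of related genes within each array, as the log2 ratio of their log-scale signals minus the mean of the E11.5 arrays. Orange marks are E11.5 and blue marks E14.5 arrays, circles replicate 1 and triangles replicate 2. The ratios with Syt11, Syn2 and Rab3c show the widest gaps between colours, and those of Nlgn1 to Nlgn2 or Dlg2 to Dlg4 overlap.

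Of 23 ratios between related genes, 16 had E14.5 arrays outside the range of the E11.5 arrays. Single genes had both E14.5 arrays below the E11.5 arrays in 31.0% and above them in 34.6% of all genes tested, so nothing is read from that count, and ratios of other gene pairs were not computed. With 2 arrays against 2, the smallest p that an exact two-sided permutation test can give is 0.333, so these ratios are descriptions. They depend little on the scaling, since both genes of a ratio share the factor of their array.

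Large scaffold proteins of the active zone, the patch of membrane where vesicles dock, were lower for 2 of 4, beside 13.6% of all genes. None was higher by limma, beside 14.3% (0 at an unadjusted p under 0.05). Pclo, piccolo, read 246 and 232 at E11.5 and 127 and 99.6 at E14.5 (-1.01 ± 0.20, adjusted p = 0.0043). Rims2, which links Rab3 on vesicles to calcium channels, fell from 230 and 263 to 118 and 114 (-1.01 ± 0.18, adjusted p = 0.0031). Of its 4 tested probe sets only the brightest was called, and the call was lost with all averaged (-0.49). Rims1 overlapped, at 65.3 and 96.6 against 65.9 and 57.1, though its other probe set was called lower (-1.01 ± 0.30). Bsn, bassoon, a partner of piccolo, overlapped at 79.3 and 121 against 81.5 and 87.9 and did not pass (-0.19 ± 0.25).

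Of 6 genes of vesicle retrieval, 2 were lower (beside 13.6% of all genes) and 2 higher (beside 14.3%), the latter with scaling only. Dnm1, dynamin 1, the neuronal GTPase that pinches off endocytic vesicles, read 492 and 462 at E11.5 and 85.4 and 93.7 at E14.5 (-2.26 ± 0.17, adjusted p = 1.5e-05). It was 5.33-fold lower in mean, and both its tested probe sets were called lower. Snap91, the clathrin adaptor AP180 of neurons, fell from 619 and 734 to 375 and 373 (-0.83 ± 0.15). Amph, amphiphysin, which brings dynamin to curved membrane, rose from 213 and 214 to 317 and 323 (0.55 ± 0.16, adjusted p = 0.030), but was at -0.19 in the values as deposited. Its arrays lay close together within each group, but the call was lost when any 1 array was left out (0.54 to 0.57) and without a variance trend. Sh3gl2, endophilin A1, also a sensor of curved membrane, read 246 and 233, then 310 and 439 (0.60 ± 0.19, adjusted p = 0.045), and was at -0.15 as deposited. That call was lost without E14.5 replicate 2 (0.36), without E11.5 replicate 2 (0.56), without a filter, without a variance trend and with its 3 probe sets averaged (0.42). Bin1, a relative of amphiphysin expressed in many tissues, overlapped at 270 and 345 against 349 and 344. Synj1, the lipid phosphatase that uncoats vesicles, read 517 and 549 against 372 and 489 and did not pass (-0.31 ± 0.17), though 1 of its 3 tested probe sets was called lower and it passed with all averaged (-0.58).

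Adhesion molecules that join the sides of a synapse included 2 higher genes of 5, beside 14.3% of all genes. None was lower by limma, beside 13.6% (0 at an unadjusted p under 0.05). Both higher genes were neuroligins, receptors on the postsynaptic side. Nlgn3 rose from 80.9 and 95.8 to 187 and 247 (1.17 ± 0.21, adjusted p = 0.0030), and 2 of its 3 probe sets were called higher. Nlgn2, the neuroligin of inhibitory synapses, rose from 675 and 667 to 1214 and 1269 (0.87 ± 0.13, adjusted p = 8.4e-04). A dimmer Nlgn2 probe set pointed the other way without passing (-0.46 ± 0.24), and averaging both lost the call (0.21). Nlgn1 of excitatory synapses read 30.3 and 66.1 against 90.3 and 91.1 and did not pass (0.83 ± 0.32, adjusted p = 0.088), but passed without E11.5 replicate 2 (1.26).

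Neurexins, their presynaptic partners, gave no called difference at the brightest probe set. Nrxn2 overlapped, at 484 and 445 against 470 and 414. Nrxn3 read 158 and 338 at E11.5 and 321 and 270 at E14.5 (0.33 ± 0.29, adjusted p = 0.46). Its probe sets disagreed, since 2 others were called lower (-1.15 ± 0.19 and -0.84 ± 0.24), and without E11.5 replicate 2 the brightest passed as higher (0.85). No direction is given for Nrxn3.

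Both scaffolds of the postsynaptic density were lower, beside 13.6% of all genes. Dlg4, PSD-95, the main scaffold beneath glutamate receptors, read 508 and 620 at E11.5 and 275 and 188 at E14.5 (-1.26 ± 0.20, adjusted p = 0.0013), with both tested probe sets called lower. Its relative Dlg2, PSD-93, fell from 53.5 and 81.4 to 16.8 and 26.9 (-1.20 ± 0.34, adjusted p = 0.027). Dropping E11.5 replicate 2 (-0.95) or E14.5 replicate 1 (-0.99), or testing with no filter, lost the Dlg2 call, and its difference was -0.77 with the larger pseudocount. Dlg4 and Dlg2 were thus lower, while neuroligins, which Dlg4 binds, were higher or did not pass at their brightest probe sets. Of the other Dlg genes, outside the 45, Dlg3 was lower (-0.53 ± 0.17) and Dlg1 did not pass (0.02 ± 0.14).

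**Figure D3:**
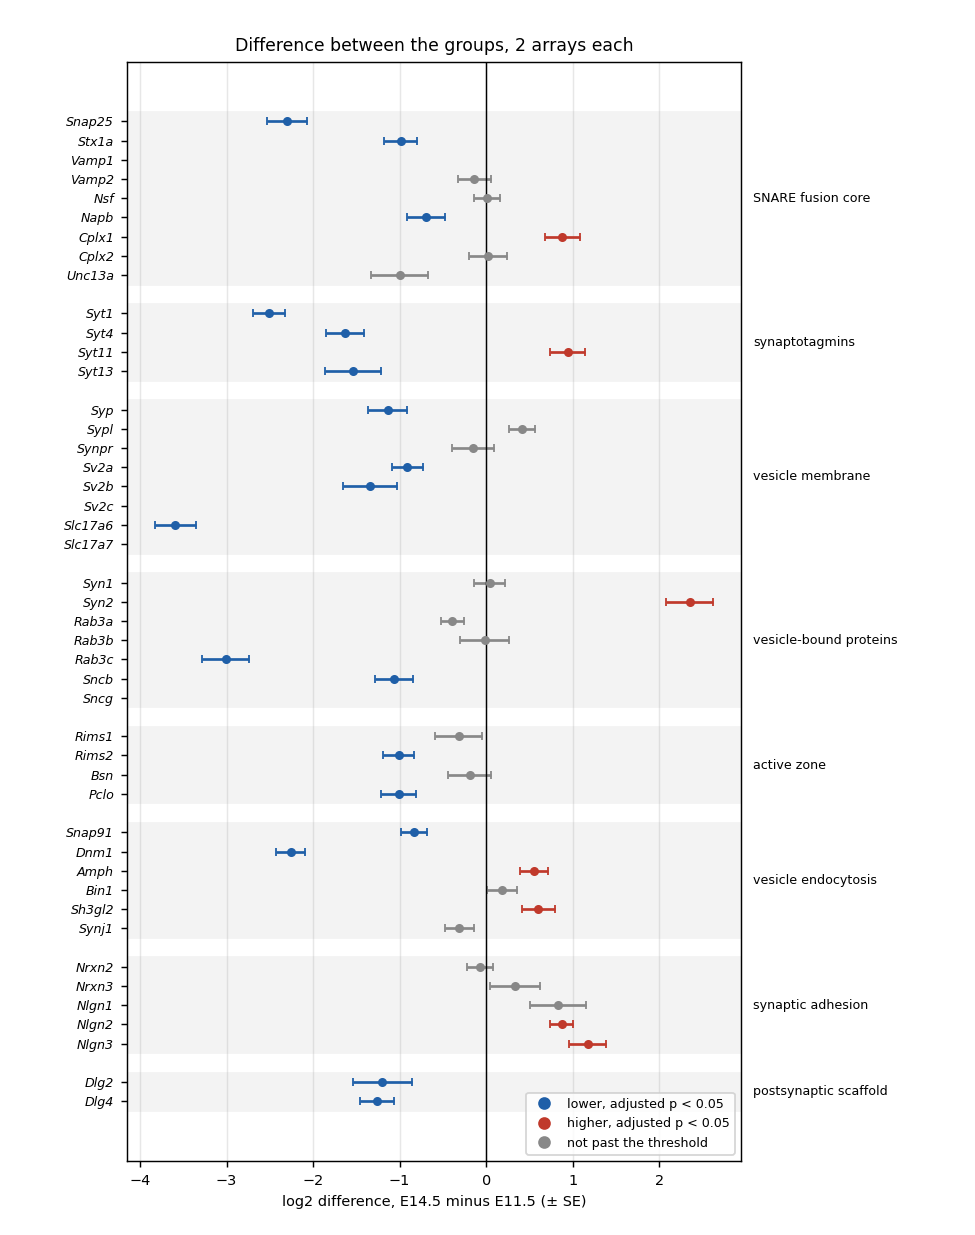
Difference between the groups for the 41 tested genes, as log2 E14.5 minus E11.5, with bars of 1 SE from limma (n = 2 arrays per group). Blue points were lower and red points higher at an adjusted p below 0.05, grey points did not pass, and the 4 genes without a point were below the filter. Blue and red points occur side by side within the SNARE core, the synaptotagmins and the vesicle-bound proteins.

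Several genes were read by more than 1 probe set. In all, 120 probe sets named 1 of the 45 genes and 95 were tested, of which 36 were called lower and 15 higher. Among all 27022 probe sets 12.6% of probe sets were called lower and 11.1% higher. Of 30 genes with several tested probe sets, 23 had all of them on the same side of 0 and 16 had the same call for all. The other 7, whose probe sets lay on both sides, were Nsf, Cplx2, Syp, Sypl, Rims2, Nrxn3 and Nlgn2. No gene had probe sets called in opposite directions. Among genes with the same call for all, Vamp2, Nsf, Cplx2, Sypl, Bsn, Bin1 and Nrxn2 had no probe set that passed.

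**Figure D4:**
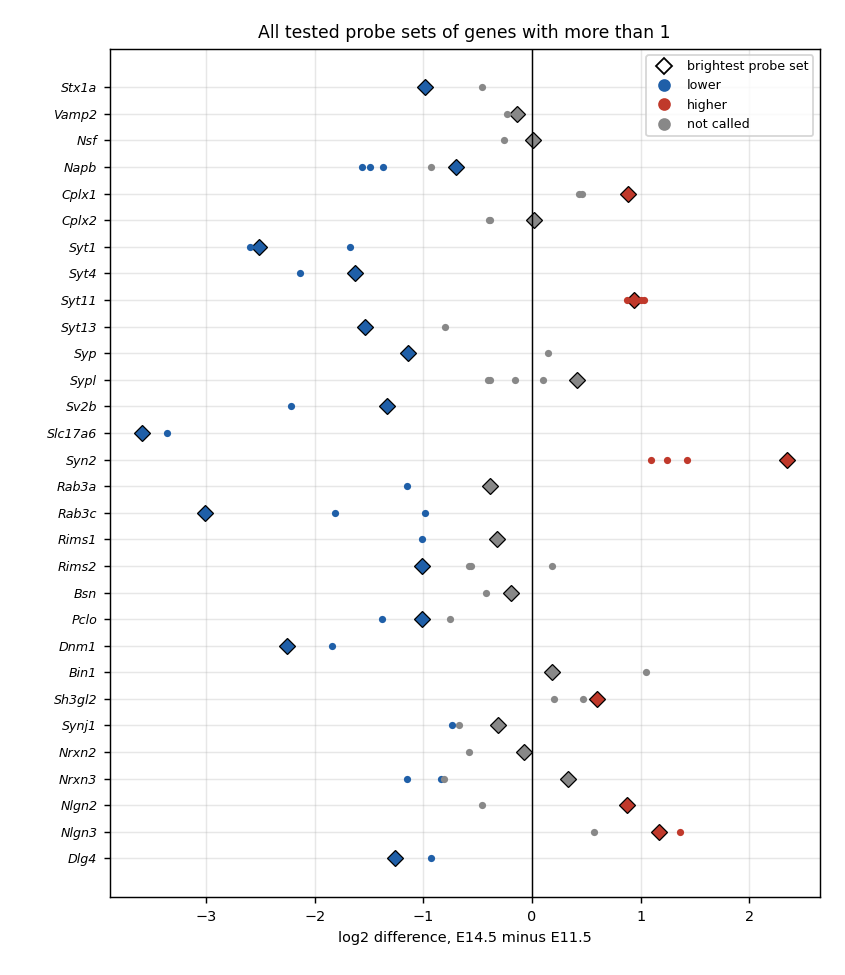
All tested probe sets of the 30 genes that had more than 1, by log2 difference, E14.5 minus E11.5. Diamonds are the brightest probe set of a gene, and colours give the call (blue lower, red higher, grey not past the threshold). The 5 probe sets of Syt11 and the 4 of Syn2 all lie to the right of 0, and those of Nrxn3 lie on both sides.

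Synaptic genes outside the 45 were taken from a list of 125. Of these, 114 had a probe set and 106 were tested, of which 23 were lower (21.7%, beside 13.6% of all genes) and 15 higher (14.2%, beside 14.3%), with a median of 0.01. In the values as deposited 30 were lower and none was higher by limma (0 also at an unadjusted p under 0.05). Whether they differed from the 45 was not tested. Of the transporters that fill vesicles with other transmitters, the vesicular GABA transporter Slc32a1 (274 to 18.5, the latter below the filter; -3.35 ± 0.39) and the monoamine transporter Slc18a2 (-1.28 ± 0.35) were lower. The second monoamine transporter Slc18a1 did not pass (0.43 ± 0.36), and the acetylcholine transporter Slc18a3 was below the filter. Of 17 tested vesicle genes outside the 45, transporters included, 4 were lower and 4 higher. That is 23.5% each, beside 13.6% and 14.3% of all genes. Among them the synapsin Syn3 was lower (-1.54 ± 0.19) and Rph3a, a Rab3 effector, was higher (1.15 ± 0.17). Of 15 tested active zone genes 7 were lower (46.7%, beside 13.6% of all genes) and none was higher by limma, beside 14.3%. At an unadjusted p under 0.05 the counts were 9 and 0, and the share of all genes at that level was not counted. The 7 were led by Erc2 (-1.59 ± 0.19), which binds Rims proteins, the liprin Ppfia2 (-1.29 ± 0.30), Rims3 (-1.22 ± 0.24) and Lin7a (-0.89 ± 0.29). For Lin7a, 1 of 2 tested probe sets was called lower, and their mean was -0.53. Syt5 was the 1 lower gene of 8 tested synaptotagmins (-1.28 ± 0.24), or 12.5%, beside 13.6% of all genes. None was higher by limma, beside 14.3% of all genes. At an unadjusted p under 0.05, 5 were lower and 0 higher, again without a share of all genes at that level.

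Of 23 tested genes of SNAREs, priming and fusion outside the 45, 4 were higher (17.4%, beside 14.3% of all genes). The 2 that were lower made up 8.7%, beside 13.6% of all genes. Stx4a (1.14 ± 0.19) and Vamp3 (0.75 ± 0.13), SNAREs of the general cell surface and of recycling endosomes, were higher, while Stx2, Snap23, Snap29, Vamp7, Vamp8, Vti1a and Vti1b, also of wide use, were not called. Of the 5 tested Vamp3 probe sets 2 were called higher, and the mean over all 5 was 0.35. Lower were Stxbp6, which binds SNAREs (-1.16 ± 0.19), and Cadps, a priming factor of dense-core vesicles (-0.82 ± 0.16). Of 21 endocytosis genes 5 were higher (23.8%, beside 14.3% of all genes) and 3 lower (14.3%, beside 13.6%). The clathrin uncoating factor Dnajc6 (auxilin) was lower (-2.21 ± 0.24), as was the dynamin-binding Pacsin1 (-1.66 ± 0.26). Epn2, epsin 2, an adaptor present in many tissues, was higher (387 to 1265, 1.67 ± 0.15), as was the clathrin light chain Cltb (1.06 ± 0.20). For Cltb, 1 of 2 tested probe sets was called higher, and their mean was 0.82. Of 11 adhesion genes 5 were lower (45.5%, beside 13.6% of all genes) and 1 higher (9.09%, beside 14.3%). The synaptic organisers Clstn2 (194 to 39.3 in mean intensity), Cbln2 (-1.95 ± 0.24), Cbln1 (-1.52 ± 0.19) and Clstn3 (-1.02 ± 0.19) led the falls. Of 11 postsynaptic scaffold genes, Dlgap3 was higher (1.44 ± 0.19) and Dlg3 lower (-0.53 ± 0.17). Each made up 9.09% of them, beside 14.3% higher and 13.6% lower over all genes.

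Markers of several cell types moved beside these genes. Over all genes tested, 13.6% were lower and 14.3% higher. Of 22 neuronal markers outside the release machinery 21 were lower and none was higher by limma (0 also at an unadjusted p under 0.05), with a median of -2.11, and 5 of the 41 release genes had a difference below that median. Summed over that list, the intensities were 26861 and 28270 at E11.5 and fell to 9834 and 9255 at E14.5. The largest falls were Stmn2 (-4.10 ± 0.28), Tbr1 (-4.03 ± 0.22), Tubb3 (-3.57 ± 0.27) and Reln (-3.29 ± 0.18), and Map2 did not pass (0.22). In bulk RNA, fewer neurons and less RNA of these genes in each neuron cannot be told apart.

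Glial markers rose while Syn2, Syt11, Nlgn3, Nlgn2, Cplx1, Amph and Sh3gl2 rose. Of 11 tested oligodendrocyte lineage markers 9 were higher and none was lower by limma (1 at an unadjusted p under 0.05), with a median of 4.16 and summed intensities of 1578 and 1223, then 21655 and 23567. Gpr17, a receptor of immature oligodendrocytes, went from a mean of 2.03 to 1967 and the precursor receptor Pdgfra from 73.9 to 3204, while the myelin gene Mog stayed dim at 2.34 and 3.21. Astrocyte markers were higher for 12 of 14, with none lower by limma (1 at an unadjusted p under 0.05), and their summed intensities were 7319 and 7566, then 29865 and 24662. Apoe (218 to 4886 in mean) and Aqp4 (21.3 to 522) were among them. Gja1 did not pass at its brightest probe set (1572 to 1060 in mean), but 2 of its 6 tested probe sets were called lower. Microglia and macrophage markers were higher for 8 of 10 tested, with sums of 277 and 344, then 1858 and 1912, and the complement gene C1qa went from a mean of 6.17 to 229. Progenitor markers had 4 of 12 higher and 2 lower, with sums of 26877 and 24254, then 33326 and 34970. Endothelial and pericyte markers had 1 of 5 tested higher and 1 lower, with sums of 471 and 317, then 322 and 274. Of 8 tested neuroendocrine secretory genes, which cover another kind of regulated release, 2 were lower, Scg2 (-3.48 ± 0.28) and Chgb (-1.86 ± 0.23), and none was higher by limma (0 at an unadjusted p under 0.05). Among called markers, Gpr17, Cspg4, Aqp4, C1qa, C1qb, C1qc and some others passed the filter only through E14.5, with E11.5 means below its limit of 27.3. Tbr1 and Scg2 passed it only through E11.5. The counts and medians of these lists are thus descriptions of the genes that passed. For Gpr17 and C1qa the E11.5 means also lie below the constant of 12.8, so no fold is given. The part of any of these cell types in the differences of the release genes was not tested.

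**Figure D5:**
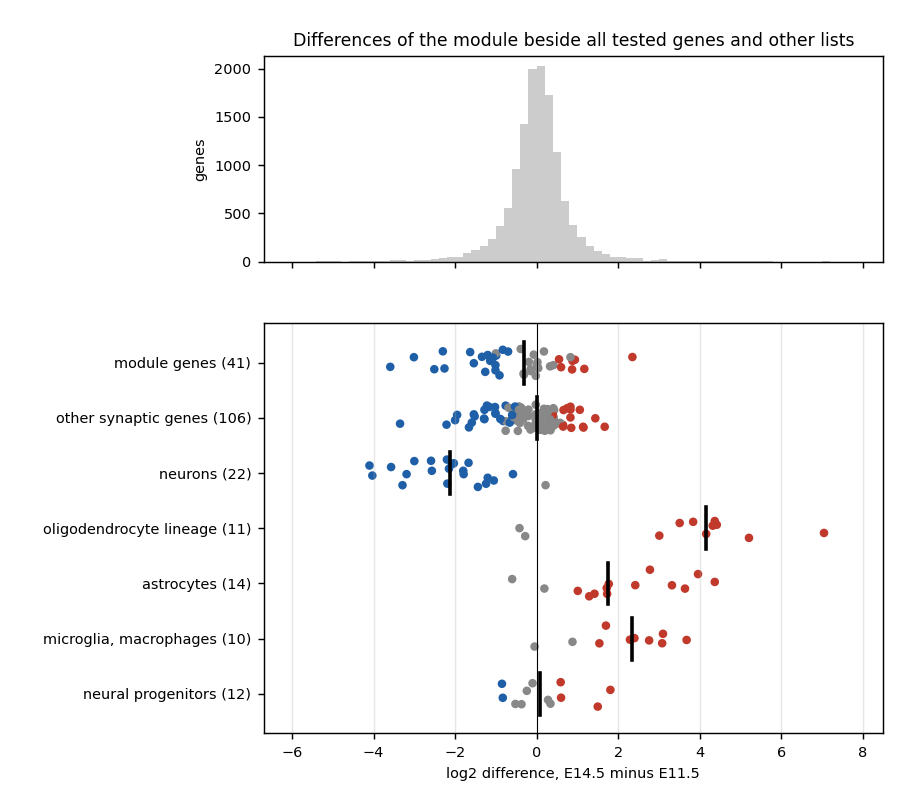
Differences of the 41 release genes beside all 12952 tested genes (histogram, counts of genes) and beside other lists (points are genes, jittered vertically, with numbers tested in parentheses). Black bars are list medians, and colours give the call as blue lower, red higher and grey not past the threshold. The release genes spread from -3.59 to 2.35. The median of the neuronal markers lies to the left of theirs and the medians of the glial lists to the right, while the ranges overlap.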

How the data were processed

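RNA was measured on 4 Affymetrix arrays, from 5 µg of RNA, per the labels' protocols. The authors deposited a linear intensity for each probe set, from GCOS per the submitters' processing notes. Its version was not given in the sources used here, nor were its settings. Groups and replicate numbers come from the sample titles. Of 45101 probe sets, 64 controls were set aside; of the other 45037, platform annotation named 1 gene for 34945, several for 932 and none for 9160, and only single-gene probe sets were named. Array factors were 0.932, 0.691, 1.13 and 1.68 (E11.5 replicates 1 and 2, E14.5 replicates 1 and 2). Probe sets at or above the 40th percentile of mean intensity entered limma 3.58.1, run in R 4.3.3 (27022 probe sets; lmFit, then eBayes with a variance trend and 2 residual degrees of freedom), with the pseudocount at the 25th percentile and Benjamini-Hochberg adjustment at 0.05. A gene was represented by its brightest probe set. The script was tested on simulated data. The named genes are all 45 members, and up to 4 called genes of each other list by size. Further names (Hes1, Fabp7, Map2, Mog, Gja1, Dlg1, Slc18a1, Slc18a3, Stx2, Snap23, Snap29, Vamp7, Vamp8, Vti1a, Vti1b and Timp4) were added with their values in view. The members and lists were chosen with earlier results of these data known. Same-numbered arrays did not deviate together (r = 0.00409 across probe sets), so the numbers were not taken as pairs. The number of arrays limits the precision.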

Additional observations from a re-analysis of the deposited data

How the results depend on the processing

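Of the 18 genes called lower, 12 kept their call under all 13 alternatives, and of the 7 called higher 1, Syn2, did. None of the 18 changed sign. With the values as deposited, without scaling, the median of all genes was -0.67 and 10.5% of calls were higher, against 51.3% with scaling; the median of the release genes was -1.07, or -0.40 from that of all genes, and 1 release gene, 0 other synaptic genes and 412 probe sets were called higher by limma (for the other synaptic genes also 0 at an unadjusted p under 0.05, against 15 called with scaling). Signs then turned for Nsf (-0.76), Cplx2 (-0.73), Sypl (-0.36), Syn1 (-0.71), Amph (-0.19), Bin1 (-0.57), Sh3gl2 (-0.15) and Nrxn3 (-0.41); relative to the median of all genes, Amph was at 0.48 and Sh3gl2 at 0.52. Without a variance trend 3 release genes and 7 other synaptic genes were called higher, and 1919 probe sets higher and 2097 lower. Without a filter 15 other synaptic genes were lower, and Vamp1 (0.30), Sv2c (0.25), Slc17a7 (-0.75) and Sncg (-0.47) did not pass. With probe sets averaged, 4 release genes were higher and their median was -0.58, and signs turned for Nsf (-0.12), Cplx2 (-0.25), Sypl (-0.01) and Nrxn3 (-0.62). Under quantile normalization Rab3b turned (0.04). Leaving out 1 array at a time, which takes the spread from the other group alone and from the trend over all probe sets (1 residual degree of freedom), 5 to 8 release genes were higher and 15 to 19 lower, with a median from -0.46 to -0.29, and 10 to 14 other synaptic genes were higher and 15 (without E11.5 replicate 2) to 26 lower. Probe sets ran from 2256 to 3148 higher and 2750 to 3405 lower. Genes not called turned sign in these, with ranges of -0.29 to 0.02 for Vamp2, -0.15 to 0.17 for Nsf, -0.32 to 0.37 for Cplx2, -0.31 to 0.00 for Synpr, -0.15 to 0.23 for Syn1, -0.40 to 0.35 for Rab3b, -0.46 to 0.08 for Bsn, -0.16 to 0.02 for Nrxn2 and -0.19 to 0.85 for Nrxn3. With the replicate numbers as a block, 19 release genes were lower and 7 higher, and 3861 probe sets were lower; Unc13a passed and no other call of a release gene changed. The cause of these changes was not tested.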
